A study of Homo sapiens with 35 samples.

Results

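Of the 58581 genes in the count table, 10 genes that are targets or feedback regulators of the WNT pathway were chosen by name and are described here in all 35 libraries. They are SP5, LEF1, TCF7, AXIN2, NKD1, NOTUM, DKK1, DKK4, RSPO3 and TNFRSF19. WNT proteins are secreted ligands that bind Frizzled and LRP receptors at the cell surface. The signal stops the AXIN- and APC-containing complex from destroying beta-catenin, which then binds TCF and LEF factors on DNA and switches on target genes. Many targets feed back on the pathway as inhibitors, and in the embryo WNT signalling starts and maintains the primitive streak, from which mesoderm and endoderm arise.

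The cells were H9, an established human embryonic stem cell line, and all groups derive from this 1 line with no genetic change named in the labels. Before the experiment they grew in E8 on Matrigel and were passaged with EDTA, and they were plated as single cells. The t0 group was the starting point, and the other cells were sampled every 6 h up to 48 h. Media were E8, which keeps cells pluripotent; E6, in which they differentiate spontaneously; and BA, which is E6 with 40 ng/mL each of BMP4 and Activin A and leads to mesendoderm, the progenitor stage of both mesoderm and endoderm. There were 3 libraries each at t0, BA 24 h, BA 48 h, E6 48 h and E8 48 h, and 1 library in each of the other 20 groups. E6 and E8 at 24 h are single libraries, so the replicated comparison of BA at 24 h uses t0, and time, seeding and culture cannot be told apart there from the added factors.

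Values are CPM, read counts scaled to a common library total with TMM factors. Libraries held 11793453 to 37191969 counts, so a gene under about 1 CPM rests on few reads. Libraries of replicate 1 and of the single-library groups (25 libraries) stood apart from those of replicates 2 and 3 (10 libraries), and values within each set are given below beside the members' results that use both. Streak markers (T, now named TBXT, EOMES, MIXL1, EVX1, GSC and MESP1) summed to 1.16 to 1.35 CPM at t0 and 121 to 1958 CPM in BA at 48 h, but to at most 121 CPM in any of replicates 2 and 3 against 2797 CPM in the other set. The 6 pluripotency markers summed to 1631 to 6064 CPM over all libraries. Other lists were also higher in sum in BA at 48 h than at t0. The 4 trophoblast and amnion markers summed to 1.73 to 3.99 CPM at t0, 4.29 to 21.4 CPM in E6 at 48 h, 1.65 to 4.76 CPM in E8 at 48 h and 115 to 213 CPM in BA at 48 h, where all 4 passed 1 CPM. The 4 blood and endothelium markers summed to 61.4 to 102 CPM at t0 and 175 to 369 CPM in BA at 48 h, where 2 passed 1 CPM and PTPRC, which defines blood cells, had 3 counts or fewer in every t0 and 48 h library. Their part in the results was not tested. Of the 6 fibroblast markers, DCN and LUM, which define those cells, had 3 counts or fewer in every t0 and 48 h library, whereas the other 4 (COL1A1, COL1A2, POSTN and THY1) passed 1 CPM in some library and the list summed to 303 to 857 CPM. In such bulk RNA, a change in the number of cells that express a gene and a change in RNA per cell cannot be told apart.

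In BA, 9 of the 10 genes were higher than in E6 over the 8 time points from 6 to 48 h, and the same 9 were higher than in E8. AXIN2 was the exception, since it lay below both control media at 6, 12 and 18 h and above them from 24 h. These calls rest on the single and replicate 1 libraries (edgeR quasi-likelihood test of the medium term, adjusted p below 0.05). There was 1 library a time and medium, and time was in the model. The error is therefore how the differences between media varied over the times. In all, 30.9% of the 18244 genes tested differed between BA and E6 and 31.1% between BA and E8, and 16.6% were higher in BA in each comparison. SP5, NOTUM, DKK1, DKK4 and RSPO3 had at most 0.770 CPM in any E6 or E8 library of this set. They passed the filter on low counts through BA, so they could hardly have been called lower. The median log2 difference of the 10 genes was 4.68 against E6 and 4.71 against E8, beside -0.01 for all genes in both comparisons. No member was called between E6 and E8 (0 at an unadjusted p below 0.05, 0 with DESeq2, and 0% of all genes called). For this pair, 268 of the 18244 genes had an unadjusted p below 0.05. The BA libraries are in the same model, so its spread includes how the difference of BA from the other media changed over time. The test therefore cannot show that E6 and E8 were alike.

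**Figure D1:**
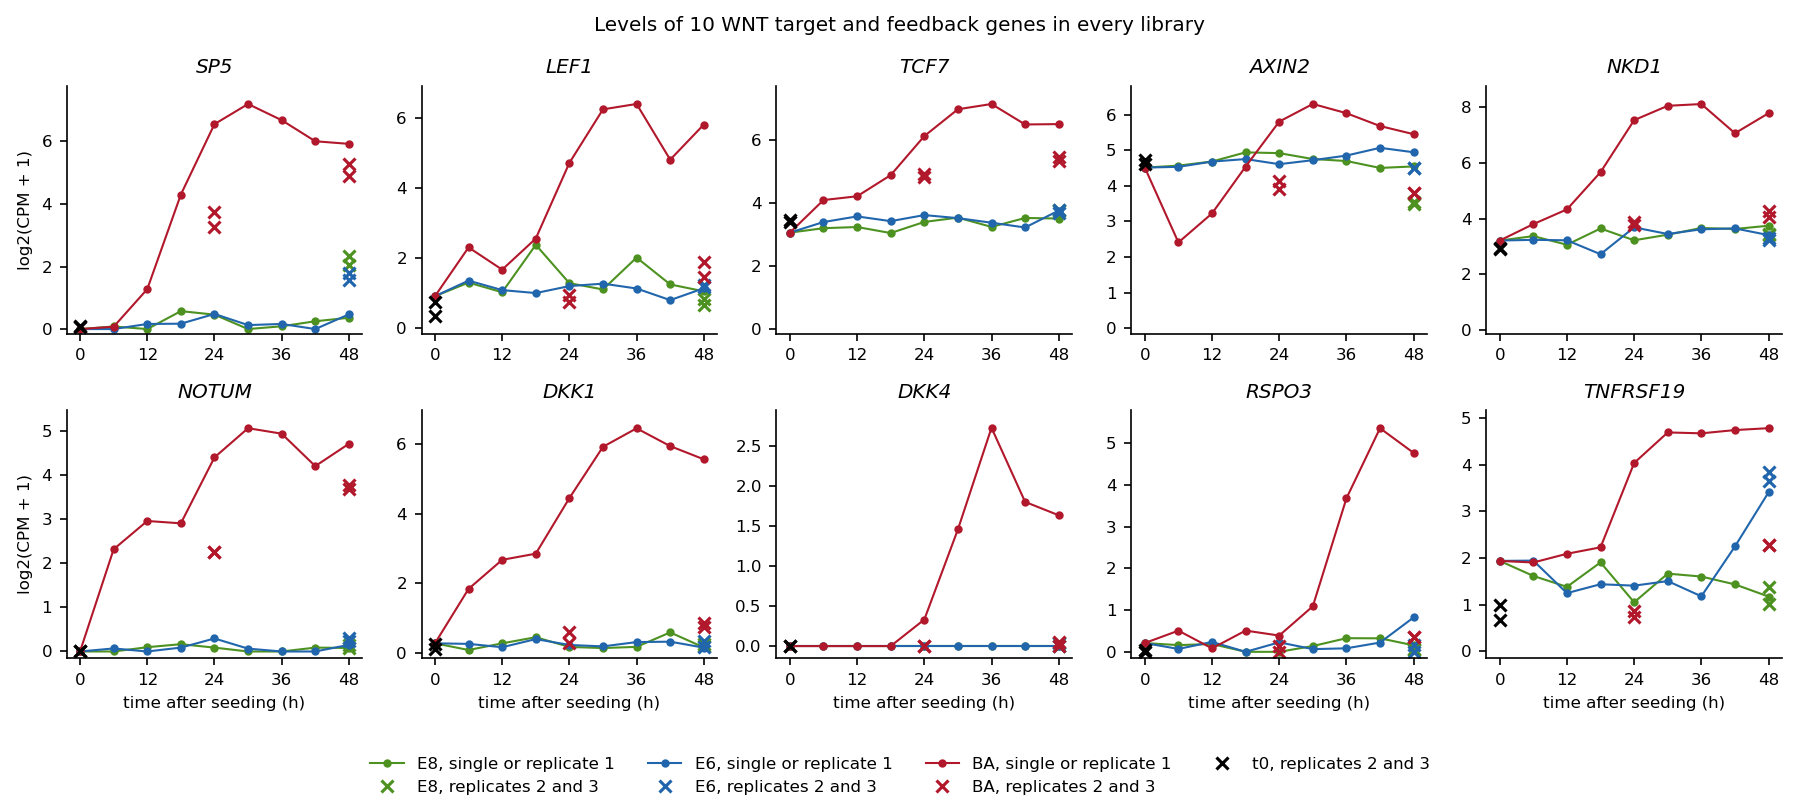
Each panel plots 1 gene in all 35 libraries, with time (h) on the x axis and log2(CPM + 1) on the y axis. Lines join the single and replicate 1 libraries of BA (red), E6 (blue) and E8 (green) from t0 replicate 1, and crosses are replicates 2 and 3. BA lies above both control media in every panel from 30 h, AXIN2 first falls to 4.32 CPM at 6 h, and the BA crosses lie below the BA line.

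SP5, LEF1 and TCF7 encode transcription factors of the pathway. SP5 is a zinc finger gene induced by WNT, and LEF1 and TCF7 are DNA-binding partners of beta-catenin. SP5 was near 0 before treatment, at 0, 0.0682 and 0.0374 CPM in the 3 t0 libraries. In BA it stood at 0.0527, 1.42, 18.7, 93.0, 146, 102, 63.3 and 59.7 CPM from 6 to 48 h. The single and replicate 1 libraries of E6 and E8 reached at most 0.488 CPM, so SP5 lay above them from 12 h. Per kb of exon, its highest level was 70.8 CPM, the highest of the 10 genes. It was higher in BA than in E6 by 8.39 ± 0.57 (SE) on the log2 scale (edgeR quasi-likelihood test, adjusted p = 7.13e-09).

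The stretch of 250 bases before the start of SP5 (chr2:170715087-170715336, plus strand, RefSeq, GRCh38.p14) is shown because it holds 3 matches to the TCF/LEF letters. The letters searched on both strands were CTTTGAA as one form, CTTTGAT as another form, then CTTTGTA as a further form and lastly CTTTGTT. They are in capitals, as TTCAAAG where the match is on the other strand. The DKK1 window (chr10:52314031-52314280, plus strand) holds 2 matches. RSPO3 (chr6:127118421-127118670, plus strand) is shown for contrast since its window holds none.
SP5: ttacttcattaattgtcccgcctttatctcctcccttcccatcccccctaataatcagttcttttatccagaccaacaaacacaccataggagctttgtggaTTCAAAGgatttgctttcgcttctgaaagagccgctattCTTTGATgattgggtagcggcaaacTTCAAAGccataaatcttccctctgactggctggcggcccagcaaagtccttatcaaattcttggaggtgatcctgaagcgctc
DKK1: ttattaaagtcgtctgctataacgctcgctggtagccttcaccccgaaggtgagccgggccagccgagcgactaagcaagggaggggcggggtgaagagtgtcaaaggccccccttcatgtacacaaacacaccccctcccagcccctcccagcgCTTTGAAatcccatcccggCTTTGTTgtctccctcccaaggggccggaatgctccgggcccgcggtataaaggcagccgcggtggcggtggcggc
RSPO3: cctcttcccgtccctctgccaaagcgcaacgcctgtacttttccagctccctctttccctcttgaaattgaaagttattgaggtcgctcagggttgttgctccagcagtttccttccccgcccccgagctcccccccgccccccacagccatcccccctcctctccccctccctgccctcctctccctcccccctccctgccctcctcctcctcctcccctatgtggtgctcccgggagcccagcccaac
The SP5 matches lie 148 to 142, 109 to 103 and 84 to 78 bases before the start, and those of DKK1 lie 95 to 89 and 76 to 70 bases before it. RefSeq windows were matched for 6 of the 10 genes, with 8 windows in all. The starts used for SP5, DKK1 and RSPO3 lie within 67 bases of the 5′ end of the gene in GENCODE 29. The LEF1 window lies inside the gene as annotated there, before a start 2655 bases from its 5′ end. Both TCF7 windows also lie inside their gene, before starts 902 and 8907 bases from its 5′ end. So does the second TNFRSF19 window, before a start 8990 bases from the 5′ end of that gene. TCF7 had 1 match, 50 to 44 bases before the start of its second window, and RSPO3, TNFRSF19 and LEF1 had none. Of 35116 windows of this length, 12.0% hold a match. The T-box letters AGGTGTGA were found in none of the windows of these genes and in 0.786% of all windows.

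LEF1 stood at 0.891, 0.273 and 0.674 CPM at t0 and at 3.95, 2.19, 4.90, 25.2, 74.4, 82.9, 27.0 and 54.9 CPM in BA from 6 to 48 h. In E6 it was between 0.750 and 1.57 CPM and in E8 between 1.05 and 4.21 CPM (single and replicate 1 libraries). The highest E8 values were 4.21 CPM at 18 h and 3.05 CPM at 36 h, the E8 libraries in which the epithelial cadherin gene CDH1 was lowest, at 18.2 and 24.2 CPM against 101 to 134 CPM in the other E8 libraries of this set. The BA library at 42 h had CDH1 at 22.1 CPM and LEF1 at 27.0 CPM, below its neighbours in time. The part of these libraries in the course was not tested beyond leaving out each time point, which kept the calls of all 9 genes. LEF1 was higher in BA than in E6 by 4.34 ± 0.64 (adjusted p = 5.37e-05). Replicates 2 and 3 had 0.690 and 0.955 CPM in BA at 24 h and 1.77 and 2.73 CPM at 48 h, far below the replicate 1 values.

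TCF7 was already expressed at t0, at 7.34, 9.45 and 10.1 CPM. In BA it stood at 16.1, 17.5, 28.5, 68.7, 125, 140, 89.0 and 89.7 CPM, whereas no single or replicate 1 control library passed 12.5 CPM. All 8 BA time points were therefore above the controls. The difference from E6 was 2.57 ± 0.33 (adjusted p = 1.23e-05). Exons of LEF1 overlap those of LEF1-AS1 and exons of TCF7 overlap those of SKP1, each on the opposite strand, and the strand of the counting is not stated, so reads in those parts cannot be assigned to 1 gene.

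AXIN2 and NKD1 act inside the cell. AXIN2 is a scaffold of the beta-catenin destruction complex and a widely used WNT target, and NKD1 binds Dishevelled and lowers the signal. AXIN2 stood at 21.8, 25.6 and 23.2 CPM at t0 and stayed between 21.6 and 32.5 CPM in the single and replicate 1 libraries of E6 and E8. In BA it was at 4.32 CPM at 6 h, 8.35 at 12 h and 22.2 at 18 h, then 54.7, 77.6, 64.7, 50.1 and 42.7 CPM from 24 to 48 h. The 6 h value rests on 82 reads (exact Poisson 95% interval 3.44 to 5.36 CPM, counting error only) and is 5.77-fold below the median of the 17 control libraries, 24.9 CPM. At 12 h it was 2.98-fold below. At 18 h AXIN2 lay within the control range but below both media of that time, at 25.9 CPM in E6 and 29.7 CPM in E8.

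AXIN2 was the 1 member below all 17 controls at both 6 and 12 h, where 5.17% of 13112 genes were, and TCF7, NKD1, NOTUM and DKK1 were above all controls at both times, where 8.44% of those genes were. From a value chosen after AXIN2 had been seen, 0.165% of the 10308 genes with 5 CPM or more in all 17 controls were, at 6 h, at or below 0.5 times the lowest of them. From 24 to 48 h, 9 of the 10 genes (not RSPO3) were above the controls at all 5 times, and 8.44% of the 13112 genes were. The 13112 genes had 5 CPM or more in any of the 25 single and replicate 1 libraries, BA included. SP5, LEF1, NOTUM, DKK1, DKK4 and RSPO3 stayed below 5 CPM in all 17 controls, so they entered through BA alone. The DKK4 value at 24 h rested on 5 reads. For AXIN2, the difference between BA and E6 was -1.28 over 6 to 18 h and 1.04 over 24 to 48 h, a difference of 2.32 ± 0.38 (edgeR test of the interaction, adjusted p = 0.0068; it was positive and called for 1.43% of all genes, and for 1.38% against E8). The interaction test was added after the data had been seen, so its p describes a pattern already known from these values. Within 6 to 18 h alone, with 3 times a medium, the AXIN2 difference from E6 was -1.25 ± 0.39 (adjusted p = 0.124, not called). SP5, TCF7, NOTUM and DKK1 were called higher there against both media (3.68% of all genes against E6 and 3.46% against E8). Over 24 to 48 h all 10 genes were called higher, as 16.4% of all genes were against E6 and 17.8% against E8. AXIN2 was higher by 1.04 ± 0.15 against E6 (adjusted p = 0.000255). Both windows use the single and replicate 1 libraries alone. In replicates 2 and 3 of BA, AXIN2 read 14.2 and 16.6 CPM at 24 h and 12.9 and 13.0 CPM at 48 h. The 48 h values were below E6 (21.4 and 21.7 CPM) and above E8 (10.8 and 10.2 CPM) of the same replicates.

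NKD1 stood at 8.23, 6.41 and 6.66 CPM at t0 and at 12.9, 19.1, 49.9, 185, 266, 278, 133 and 221 CPM in BA. The highest single or replicate 1 control was 12.4 CPM, so all BA times lay above the controls, and by a small margin at 6 h. NKD1 was higher in BA than in E6 by 3.59 ± 0.45 (adjusted p = 9.76e-06). Its exons overlap an antisense gene, AC007608.1, and exons of AXIN2 overlap those of a same-strand gene, AC004805.1.

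NOTUM, DKK1 and DKK4 are secreted antagonists. NOTUM is an enzyme that removes the lipid from WNT ligands, and the DKK proteins block the LRP co-receptors. NOTUM was at 0 in all 3 t0 libraries and at 0.227 CPM or less in the other single and replicate 1 controls. In BA it was at 4.0 CPM at 6 h, when SP5 was at 0.0527 CPM, and then at 6.81, 6.53, 20.3, 32.7, 29.9, 17.5 and 25.4 CPM. NOTUM was higher in BA than in E6 by 7.93 ± 0.40 (adjusted p = 1.93e-10).

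DKK1 stood at 0.210, 0.205 and 0.0748 CPM at t0. In BA it stood at 2.58, 5.39, 6.23, 20.9, 59.8, 87.0, 60.7 and 46.4 CPM, against at most 0.503 CPM in the single and replicate 1 controls. All 8 BA times were above the controls, and the difference from E6 was 7.17 ± 0.52 (adjusted p = 1.44e-08). DKK1 exons overlap those of PRKG1-AS1 on the opposite strand.

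DKK4 was at 0 in the 17 control libraries of the single and replicate 1 set. In BA it was at 0 up to 18 h and at 0.258, 1.75, 5.63, 2.49 and 2.11 CPM from 24 to 48 h. Over the course, the BA libraries held 206 DKK4 reads, at least 68.3-fold higher than E6 and at least 65.1-fold higher than E8 (against a floor of 3 counts over each group). Replicates 2 and 3 had at most 0.0318 CPM in any group. The edgeR test called DKK4 against E6 (adjusted p = 0.00243), but the DESeq2 test did not (adjusted p = 0.204), nor did a spline of time in edgeR (adjusted p = 0.112).

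RSPO3 encodes an R-spondin, a secreted protein that amplifies WNT signalling by keeping Frizzled receptors at the surface. It was at 0.157, 0 and 0.0374 CPM at t0 and at or under 1.13 CPM in BA up to 30 h. It then stood at 11.8, 40.1 and 26.2 CPM at 36, 42 and 48 h, the latest onset among the members that had one by the rule given below. The single and replicate 1 controls had at most 0.770 CPM, and replicates 2 and 3 of BA at 48 h had 0.278 and 0.286 CPM. RSPO3 was higher in BA than in E6 by 5.02 ± 0.73 (adjusted p = 4.39e-05).

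TNFRSF19 (TROY) encodes a receptor of the TNF family and a WNT target in stem cells. It stood at 2.83, 0.989 and 0.599 CPM at t0. In BA it was at 2.74, 3.26, 3.69, 15.5, 24.9, 24.6, 25.9 and 26.6 CPM and held a plateau from 30 h, whereas the E6 course was between 1.26 and 3.75 CPM up to 42 h and at 9.63 CPM at 48 h. TNFRSF19 was higher in BA than in E6 by 2.36 ± 0.47 (adjusted p = 0.00093) and than in E8 by 2.78 ± 0.50 (adjusted p = 0.000314). Replicates 2 and 3 of BA had 0.659 and 0.827 CPM at 24 h and 3.86 and 3.87 CPM at 48 h, below the E6 libraries at 48 h.

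The highest BA values fell at different times. SP5, AXIN2 and NOTUM were highest at 30 h, LEF1, TCF7, NKD1, DKK1 and DKK4 at 36 h, RSPO3 at 42 h and TNFRSF19 at 48 h. The onset, taken as the first time in BA with 5 CPM or more and 4 times the t0 mean (1 CPM added to both) and the same again 6 h later, was 12 h for NOTUM and DKK1, 18 h for SP5 and NKD1, 24 h for LEF1, TCF7 and TNFRSF19, and 36 h for RSPO3. AXIN2 and DKK4 had none by this rule. Each time holds 1 library, so this order has no test. Exact Poisson 95% intervals (counting error only) overlapped between 30 and 36 h for NKD1 (258 to 273 and 270 to 286 CPM). The same held for NOTUM (30.2 to 35.3 and 27.3 to 32.7 CPM). For TNFRSF19 they overlapped between 30 and 48 h (22.8 to 27.3 and 24.1 to 29.3 CPM). The RSPO3 peak lies in the BA library at 42 h, which had low CDH1 (22.1 CPM). At 48 h SP5 had 40.9% of its peak, DKK4 37.4%, DKK1 53.4%, AXIN2 55.0%, NOTUM 77.5% and NKD1 79.5%.

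**Figure D2:**
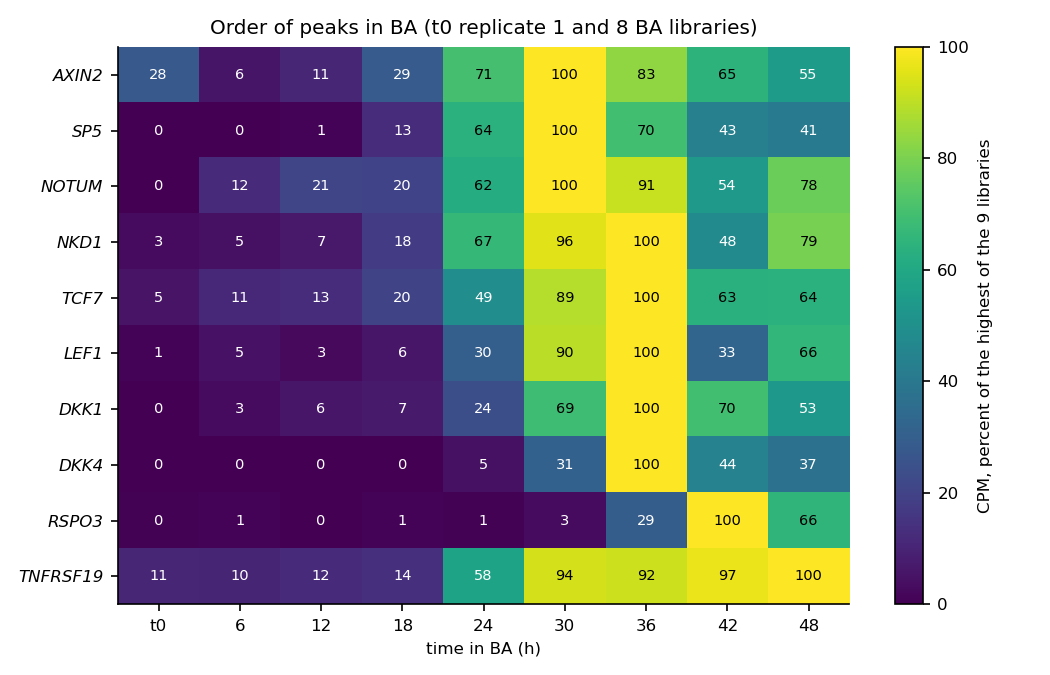
The map shows the CPM of each gene in t0 replicate 1 and the 8 BA libraries (x axis, h) as a percentage of its highest value, with the number in each cell and genes ordered by time of peak. AXIN2 starts at 28 percent of its peak and drops to 6 percent at 6 h, and RSPO3 is under 30 percent until 42 h.

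The positions of 9 of the genes on GRCh38 (GENCODE 29) follow. They are chromosome 2, 170715351 to 170718078 for SP5; chromosome 4, 108047545 to 108168956 for LEF1; and chromosome 5, 134114711 to 134151865 for TCF7. AXIN2 is on chromosome 17, 65528563 to 65561647, NOTUM on chromosome 17, 81952507 to 81961840, and NKD1 on chromosome 16, 50548330 to 50649249. DKK1 is on chromosome 10, 52314296 to 52318042, RSPO3 on chromosome 6, 127118604 to 127197765, and TNFRSF19 on chromosome 13, 23570370 to 23676104. Reads were counted per gene, so values do not separate exons or transcripts.

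The 5 groups with 3 libraries were then compared in 1 edgeR model of 15 libraries, in which 8 of the 10 genes passed the filter on low counts and DKK4 and RSPO3 did not. At 24 h in BA, SP5, TCF7 and NOTUM were higher than at t0, 3 members of 8 tested, while 1.57% of all genes differed and 1.26% were higher. With these 2 groups alone in the model, 0 members were called. SP5 read 93.0, 8.57 and 12.4 CPM in BA replicates 1 to 3 and had 3 reads in all at t0, a ratio of pooled counts of 746 (95% counting interval 255 to 3620), or 262 (89.4 to 1275) without BA replicate 1, and was called (adjusted p = 0.0078; up to 0.0648, not called, without t0 replicate 2 or 3). NOTUM read 20.3, 3.83 and 3.79 CPM, at least 192-fold higher than the 3 t0 libraries at 0, or at least 95.4-fold without BA replicate 1 (adjusted p = 0.00177). TCF7 read 68.7, 27.3 and 29.3 CPM, 2.27 ± 0.40 above t0 on the log2 scale (adjusted p = 0.015; up to 0.0959 without any 1 of the 3 t0 libraries).

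LEF1, NKD1, DKK1, AXIN2 and TNFRSF19 were not called at 24 h against t0, with log2 differences of 3.91 (adjusted p = 0.366), 3.36 (0.266), 5.49 (0.296), 0.32 (1) and 1.96 (0.755). The libraries of SP5, TCF7, NKD1, NOTUM and DKK1 did not overlap between BA at 24 h and t0, where 9.82% of genes with 1 CPM in any library were higher in that way. Replicate 1 of BA was far above replicates 2 and 3 for each, as NKD1 at 185, 12.5 and 13.8 CPM and DKK1 at 20.9, 0.220 and 0.509 CPM show. The DKK1 gap was narrow, with its lowest BA library at 0.220 CPM (7 reads) and its highest t0 library at 0.210 CPM (4 reads). Between 24 and 48 h in BA no member was called (0 at an unadjusted p below 0.05 and 0 with DESeq2; 0.455% of all genes differed).

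At 48 h, SP5, TCF7 and NOTUM were higher in BA than in E6 (3 of 8; 3.52% of all genes differed, 2.03% higher). NOTUM read 25.4, 12.9 and 12.0 CPM in BA and 0.110, 0.234 and 0.178 CPM in E6, a difference of 6.53 ± 0.84 (adjusted p = 0.00283). TCF7 read 89.7, 39.4 and 43.0 against 12.5, 12.7 and 11.9 CPM, a difference of 2.24 ± 0.40 (adjusted p = 0.00976; up to 0.0655 without E6 replicate 2 or 3). SP5 read 59.7, 38.1 and 28.9 against 0.385, 1.96 and 2.46 CPM, a difference of 4.71 ± 1.13 (adjusted p = 0.0419), and this call was lost without any 1 of the 6 libraries (adjusted p from 0.0652 to 0.155). DKK1 read 46.4, 0.661 and 0.826 against 0.110, 0.263 and 0.119 CPM and was not called (adjusted p = 0.111), but was with replicate number as a block (0.0413), so that 4 members were higher with the block, as 12.4% of all genes were.

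Against E8 at 48 h, TCF7 (2.31 ± 0.40, adjusted p = 0.0103) and NOTUM (7.81 ± 0.92, adjusted p = 0.00239) were higher in BA, 2 of 8 where 2.44% of all genes differed and 1.51% were higher. The TCF7 call was lost without any 1 of the 3 E8 libraries (adjusted p up to 0.0673). SP5 differed by 4.08 ± 1.10 (adjusted p = 0.078, and 0.0213 with the replicate block) and DKK1 by 6.77 ± 2.06 (0.122, and 0.0412 with the block), so that 4 members were higher with the block, as 10.3% of all genes were. All 3 BA libraries were above all 3 E8 libraries for 8 of the 10 genes (all but AXIN2 and DKK4), as for 8.86% of genes with 1 CPM in any library, and above all 3 E6 libraries for 6, as for 10.1%.

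**Figure D3:**
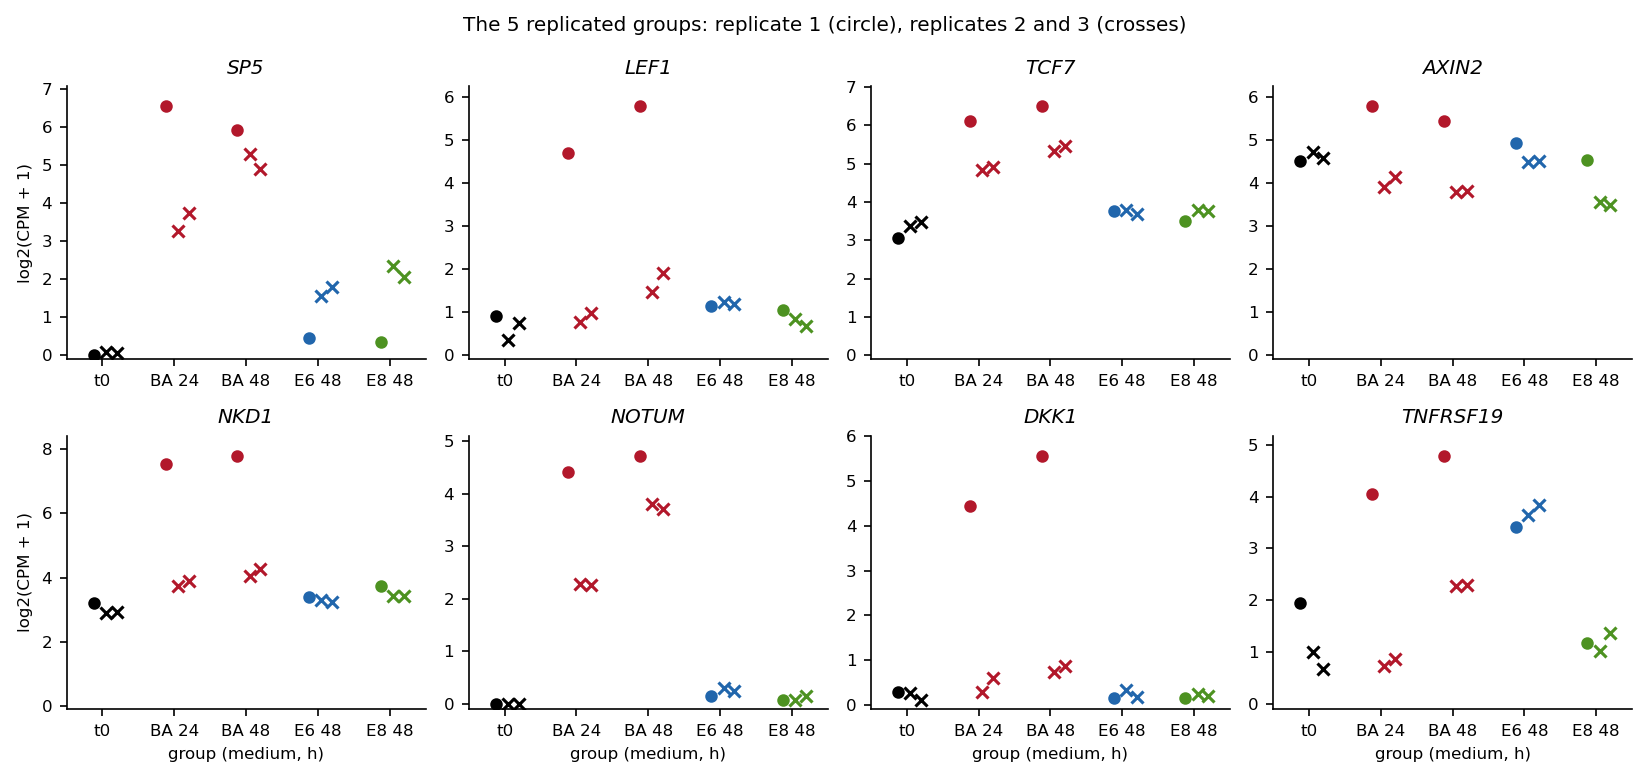
Each panel plots 1 of the 8 genes tested as log2(CPM + 1) (y axis) in the libraries of t0, BA 24 h, BA 48 h, E6 48 h and E8 48 h (x axis), with replicate 1 as a circle and replicates 2 and 3 as crosses. BA replicate 1 lies above BA replicates 2 and 3 for every gene, and TNFRSF19 at E6 48 h lies at 9.63 to 13.3 CPM in all 3 libraries.

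The group differences were also taken within each of the 2 sets of libraries, and are given as a description with no p, since the sets were split after replicate 1 had been seen to stand apart and replicate 1 is 1 library a group. LEF1 differed from E6 by 5.61 in replicate 1 and 0.75 in replicates 2 and 3 on the log2 scale. NKD1 differed by 4.64 and 0.94, DKK1 by 8.77 and 1.90, TCF7 by 2.95 and 1.70, and SP5 by 7.37 and 3.88, so that each was larger in replicate 1. For AXIN2 and TNFRSF19 the direction turned, with AXIN2 at 0.63 and -0.77 and TNFRSF19 at 1.58 and -1.72.

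Against E8 at 48 h TCF7 stood at 3.21 in replicate 1 and 1.69 in replicates 2 and 3, and NOTUM at 8.78 and 7.27. For BA at 24 h against t0, TCF7 was at 3.19 and 1.61. Within replicates 2 and 3 alone, 5 genes were called between BA at 24 h and t0, SP5, TCF7, NKD1 and NOTUM higher and AXIN2 lower by a log2 difference of -0.62 (adjusted p = 0.0015; 20.7% of all genes differed). Within the same set, 6 genes were higher in BA at 48 h than at 24 h (18.5% of all genes), 7 were called against E6 at 48 h with 5 higher and AXIN2 and TNFRSF19 lower (36.7%), and 7 were higher than in E8 (17.5%). Many genes passed in this set, and E8 at 48 h against t0 had 6 members called (51.3%), 5 higher and AXIN2 lower. This fit leaves out the replicate that had been seen to stand apart and holds 2 libraries a group. Its calls and p-values are therefore a description too. AXIN2 read 14.2 and 16.6 CPM in BA at 24 h and 12.9 and 13.0 CPM at 48 h there, below the t0 values of 25.6 and 23.2 CPM. In this set it was lower still in E8 at 48 h, at 10.8 and 10.2 CPM (log2 difference from t0 of -1.12). The lower AXIN2 level was therefore not particular to BA.

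**Figure D4:**
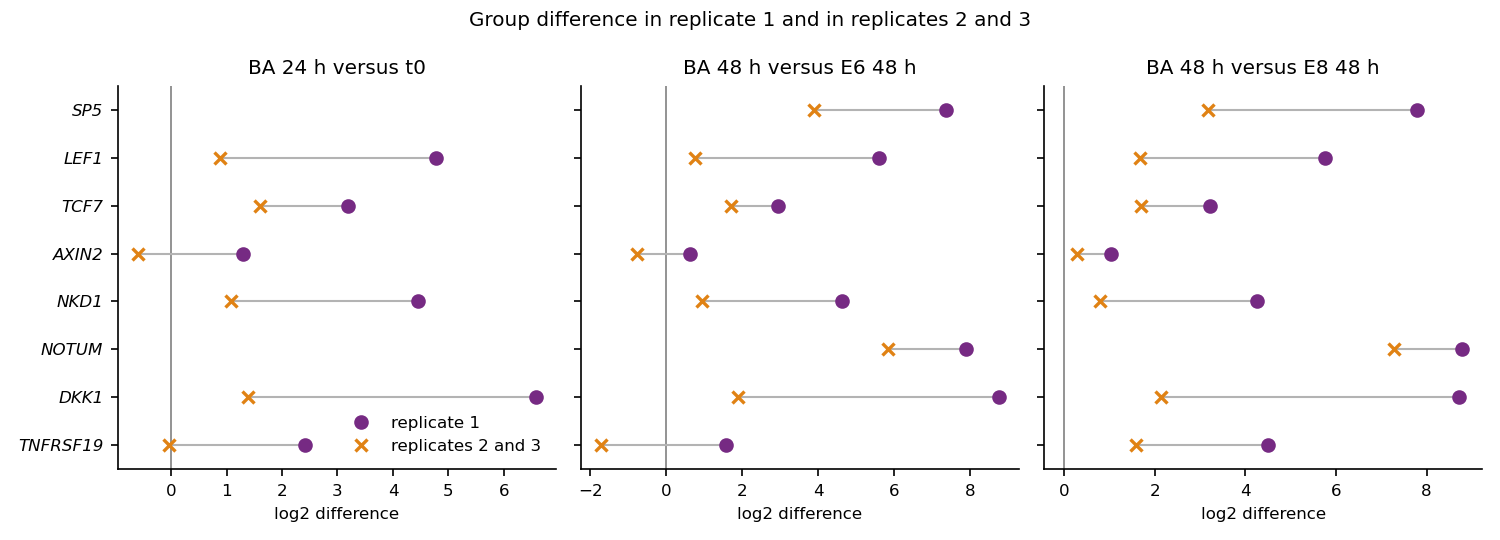
Each row is a gene and the x axis is the log2 difference between groups, with replicate 1 as a circle and replicates 2 and 3 as crosses, for BA 24 h against t0 and BA 48 h against E6 and E8. SP5 and NOTUM are not drawn against t0, where libraries are at 0. The circle lies right of the cross for every gene drawn, and AXIN2 and TNFRSF19 cross 0 against E6.

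Between E6 and E8 at 48 h no member was called in the model of 15 libraries (1 at an unadjusted p below 0.05, 0 with DESeq2; 0.144% of all genes differed). TNFRSF19 read 9.63, 11.5 and 13.3 CPM in E6 and 1.25, 1.02 and 1.58 CPM in E8, without overlap, a log2 difference of 3.17 ± 1.20 (adjusted p = 0.793, and 0.0671 with the block), one of 3 members higher in E6 without overlap (4.85% of genes) beside 1 lower, NKD1 (4.75%). In replicates 2 and 3 alone the TNFRSF19 difference was 3.29 (edgeR, adjusted p = 8.08e-06), where 9.68% of all genes were higher. AXIN2 was also higher in E6 there, by 1.06 (adjusted p = 5.81e-05), at 21.4 and 21.7 CPM against 10.8 and 10.2 CPM. As stated above for this set, these p-values are a description. Neuroectoderm markers (PAX6, SOX1, FEZF1, SIX3 and OTX1) summed to 35.4 to 49.5 CPM in E6 at 48 h and 1.31 to 5.35 CPM in E8, with 3 of the 5 reaching 1 CPM in E6 replicate 1 and 3 in E6 replicates 2 and 3, where SOX1 had 3 counts or fewer, and their part in the TNFRSF19 level was not tested.

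In E8 at 48 h against t0, no member was called (2 at an unadjusted p below 0.05, 1 with DESeq2; 0.139% of all genes differed). SP5 read 0.285, 4.11 and 3.16 CPM against 0, 0.0682 and 0.0374 CPM, so that replicates 2 and 3 of E8 carried more SP5 than any single or replicate 1 control (adjusted p = 0.0965, and 0.0267 with the replicate block, with which 12.6% of all genes were higher). All 3 E8 libraries were above all 3 t0 libraries for SP5, TCF7, NKD1 and NOTUM, as for 10.2% of genes. E6 at 48 h had SP5 at 0.385, 1.96 and 2.46 CPM.

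The authors' deposited table, whose header does not name the reference, gives log2 fold changes and adjusted p-values. Its values correlated with those against t0 computed here (r = 0.905 over 21519 genes for BA at 24 h, across genes, which are not independent). In the authors' deposited table, 4 of the 10 genes had an adjusted p below 0.05 at BA 24 h (1.62% of its genes), 8 at BA 48 h (3.49%), 2 at E6 48 h (3.85%) and 1 at E8 48 h (1.39%). The 8 at BA 48 h in the authors' deposited table ran from TNFRSF19 at 2.23 to SP5 at 8.20, and AXIN2 was at 0.04 and DKK4 at 1.63. The 2 in E6 in the authors' deposited table were SP5 (3.27) and TNFRSF19 (2.37), and the 1 in E8 was SP5 (2.71). These comparisons share their control libraries where the reference is the same.

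Other genes of the pathway were followed as a list of 88, chosen by their known roles but with earlier results of these data known. Its counts are therefore a description beside the shares of all genes. Of the 88, 82 passed the filter in the 15 libraries and 71 in the time courses. Over the course, 28 of 71 were higher and 13 lower in BA than in E6, where 16.6% of all genes were higher and 14.3% lower, and 28 and 12 in BA than in E8, where 16.6% and 14.5% were. The median log2 difference of the list was 0.17 against E6 (all genes: -0.01). The largest rises against E6 were the homeobox gene CDX1 (7.61), the streak gene T (7.60) and the ligand WNT9B (6.40), and the largest falls the secreted Frizzled-related inhibitor SFRP1 (-2.92), the inhibitor WIF1 (-2.80) and TCF7L1 (-1.99), a TCF factor often a repressor.

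In the replicated groups, 7 of 82 genes of the list were higher and 1 lower in BA at 24 h than at t0, as 1.26% and 0.315% of all genes were. T differed by 7.90 ± 1.30, CDX1 by 7.53 ± 1.29 and the ligand WNT8A by 6.30 ± 1.21, and SFRP1, at 171 ± 28.9 (SD) CPM in BA and 1098 ± 225 CPM at t0 (n = 3), by -2.66 ± 0.36. In BA at 24 h T read 94.1 CPM in replicate 1 and 5.77 and 7.51 CPM in replicates 2 and 3, CDX1 7.13, 1.22 and 1.24 CPM, and WNT8A 22.6, 4.02 and 3.76 CPM, all above t0, where the highest of these was 0.262 CPM. At 48 h, 6 were higher and 2 lower in BA than in E6, and 7 and 3 than in E8, beside 2.03% and 1.49% of all genes against E6 and 1.51% and 0.933% against E8. WNT3, a ligand that acts in the early streak, had 70.4 ± 44.8 CPM with BA, against 0.949 ± 0.468 CPM with E6 (SD, n = 3; log2 difference 6.27, adjusted p = 0.000985), at 122 CPM in BA replicate 1 and 44.5 and 44.6 CPM in replicates 2 and 3. WNT6 was at 0.507 ± 0.135 CPM in BA and at 0 in all 3 E6 libraries. Between 24 and 48 h in BA, DKK3 was higher (1.13) and SFRP2 lower (-1.92), and in E8 at 48 h KREMEN1 was higher than at t0 (1.43).

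By Pearson r of log2(CPM + 1) over the 25 single and replicate 1 libraries, among 15233 genes with a mean of 1 CPM or more, the genes with the course most like SP5 were EVX1 (r = 0.996), T (0.987), the member NKD1 (0.986), PLA2G2A (0.983) and RP11-401P9.4 (0.979). For AXIN2 they were VRTN (0.885), TSPAN14 (0.812), TCHP (0.805), SP8 (0.791) and MLLT6 (0.790). These libraries share the time course and the media, and the r are given as a description. The r of AXIN2 with SP5 was 0.647, and of SP5 with TCF7 0.975.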

How the data were processed

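Poly(A) RNA of H9 cells was sequenced in 35 libraries, and the authors deposited whole read counts of 58581 genes under symbols of GENCODE 23, per the file headers. Builds and tools named in the submitters' processing notes are hg38, featureCounts and DESeq2, given without versions or a strand setting. The deposited table of comparisons holds log2 fold changes and p-values of the authors, per the file headers. Counts were scaled to CPM with TMM factors and tested with edgeR 4.0.16 in R 4.3.3 (quasi-likelihood test, filterByExpr, Benjamini-Hochberg adjustment over 21554 genes in the 15 libraries of replicated groups and 18244 in 24 libraries of the time courses), and with DESeq2 1.42.0 as an alternative. The statistics were tested on simulated data. Whether replicates were separate cultures is not stated, so p-values measure only the spread between these samples. Same-numbered replicates deviated together from their group means (r from 0.587 to 0.884 over pairs of groups, and 14 of 15 libraries correlated best with their own number), so a fit with the replicate number as a block was also made. Replicates 2 and 3 also correlated with each other across groups (0.561 to 0.738). The group means include replicate 1, so a replicate 1 that stands apart by itself raises these r. It also adds to the same-number r. Differences within each of the 2 sets of libraries and the interaction test between early and late times were added after the data had been seen. Named genes are the 10 members, the 5 genes most like SP5 and AXIN2, and at most 3 called genes each way of the WNT list. Members, lists and tests were chosen with earlier results of these data known. Gene positions come from GENCODE 29.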

Additional observations from a re-analysis of the deposited data

Results flagged for a closer look

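The difference between BA and the control media grew from 6 to 18 h to 24 to 48 h for 5 genes against E6 and 6 against E8, by an edgeR test of the interaction of medium and window (adjusted p below 0.05), where the same was found for 1.43% and 1.38% of all genes. Against E6 the growth on the log2 scale was 3.90 for LEF1 (adjusted p = 0.00449), 2.26 for TCF7 (0.00338), 2.32 for AXIN2 (0.0068), 2.63 for NKD1 (0.00693) and 3.78 for DKK1 (0.00785). Against E8 it was 4.18 for LEF1 (0.00201), 2.01 for TCF7 (0.0033), 2.56 for AXIN2 (0.0033), 2.91 for NKD1 (0.0033), 3.65 for DKK1 (0.0118) and 3.21 for TNFRSF19 (0.0142). AXIN2 alone of these was below the control media in the early window, by -1.28 against E6 and -1.35 against E8. The 2 comparisons share the BA libraries, and each window holds 1 library a time and medium. This test was added after the data had been seen, so its p-values describe patterns already known from these values.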

How the results depend on the processing

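Of 962 values of single members under alternatives, 893 kept their call and direction or stayed uncalled (51 of the uncalled changed sign), 33 lost a call, 33 gained one and 3 turned direction. Without replicate 1 in every group, the counts called were 5 (BA 24 h against t0), 6 (BA 48 h against 24 h), 7 (BA against E6 at 48 h), 7 (BA against E8), 2 (E6 against E8) and 6 (E8 against t0). That setting turned AXIN2 at BA 24 h against t0 to -0.62, TNFRSF19 in BA against E6 to -1.74 and TNFRSF19 in E8 against t0 to 0.78; the cause was not tested. With only the 2 groups compared, the counts were 0 for BA 24 h against t0 and 1 for BA against E6 and against E8, with fewer libraries to estimate the spread. DESeq2 gave 4 for BA against E8 and 1 for E8 against t0. The replicate block gave 4 for BA against E8 and 1 for E8 against t0, and 4 for BA against E6; it changed no other call. Leaving out 1 replicate gave 1 to 3 for BA 24 h against t0, 1 to 2 for BA against E6 and against E8 and 0 to 1 for E8 against t0. From 6 to 18 h alone, 4 members were called against E6 and 4 against E8. A spline of time called 1 member between E6 and E8. The onset moved at 2 times the t0 mean (TCF7 to 18 h, NKD1 to 12 h), at 8 times (TCF7 30, NKD1 24, NOTUM 24, DKK1 24, TNFRSF19 30 h) and at 1 CPM (NOTUM 6 h). DKK4 had 33 reads in replicate 1 of BA at 48 h and 1 in the deeper replicates 2 and 3 together, and neither it nor RSPO3 passed the filter in the 15 libraries.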
